A study of Mus musculus with 12 samples.

Results

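The comparison set CD8αα from CD4 against CD4 IEL, the intraepithelial lymphocytes (IEL) that carry CD8αα and those that carry CD4 in the small intestine of mice given CD4 T cells. It took 6 of the 12 bulk RNA-seq libraries of the series, 3 of CD8αα from CD4 and 3 of CD4 IEL, chosen by their titles. All hosts were Rag2-/- mice, whose own T and B cells cannot form while innate lymphoid cells remain. Each received at least 2000000 lymph node T cells of Themis WT donors in 1 intravenous injection, CD4+ T cells for the 6 libraries described here, and the tissue was taken after 1 week. By the labels, CD8αα from CD4 was sorted as TCRβ CD8αα+ and CD4 IEL as TCRβ CD4+, both with genotype WT. The other 6 libraries, CD8αα from CD8αβ and CD8αβ IEL, came from hosts given CD8αβ+ T cells and served the shared estimate of spread and the closing comparison. No age or sex is given, nor whether the replicates were different mice, so the p-values cover the spread among these libraries, which may be technical. Within CD8αα from CD4, though, replicate 3 differed from replicates 1 and 2 in sex-linked transcripts, as given below, so it did not repeat their cells.

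IEL lie between the epithelial cells of the gut, where they meet antigens, microbes and epithelial stress signals first. A CD4 T cell normally expresses the TCR with the CD3γ, CD3δ, CD3ε and ζ chains, which carry the signal into the cell, and it uses CD4 to hold MHC class II. CD8αα, a homodimer of the CD8 α chain, is found on many IEL and binds the gut MHC molecule TL. It can appear on TCR-bearing IEL and also on IEL without a TCR, so it marks more than 1 kind of cell.

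The depth was similar in the groups, at 5620257 to 8876202 counts in CD8αα from CD4 and 6381733 to 8595847 in CD4 IEL, with 13198 to 13612 genes counted in CD8αα from CD4 and 12838 to 13758 in CD4 IEL. Levels are CPM, the counts of a gene scaled to a common library total. A count of 0 in a library of CD8αα from CD4 replicate 1, the shallowest, allows up to 0.534 CPM, and such floors cover counting error only. Sorting on CD4 and CD8α fixed the levels of their genes: Cd8a was at 2433, 2692 and 2826 CPM in CD8αα from CD4, against 45.7, 48.4 and 47.6 in CD4 IEL. Cd4 averaged 2.94 ± 0.359 CPM in CD8αα from CD4 and 1642 ± 93.1 in CD4 IEL (SD, n = 3 each, as for all means given with ±). Against the TCRβ label, the libraries of CD8αα from CD4 held few reads of defining T cell genes. Cd3e was at 8.71, 3.21 and 12.8 CPM in CD8αα from CD4, against 505, 528 and 639 in CD4 IEL. Cd2 was at 2.56, 0.115 and 0.936 CPM in CD8αα from CD4, against 173, 118 and 146 in CD4 IEL. Of 19 T cell markers tested, 18 were lower and only Cd3g higher, with a median log2 fold change of −4.75 and a sum of 4603 to 5093 CPM in CD8αα from CD4 and 10420 to 11790 in CD4 IEL. T cell receptor constant region genes were not analysed here. The group is therefore called by its label, and rose and fell compare the groups as labelled, without saying that any cell changed.

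Sex-linked transcripts also split the libraries. The Y-linked genes Ddx3y, Eif2s3y, Kdm5d and Uty summed to 0.342, 1.03 and 363 CPM in replicates 1 to 3 of CD8αα from CD4, and Xist, the X inactivation transcript, was at 645, 485 and 1.25 CPM there. In CD4 IEL the Y-linked sum was 449, 373 and 377 CPM and Xist 15.2, 36.4 and 0. Replicate 3 of CD8αα from CD4 was thus the only one of its group with the Y-linked transcripts that all 3 CD4 IEL libraries had, and main counts are also given with it alone against CD4 IEL. The labels give the sex of neither donors nor hosts, so whether the cells of each CD8αα from CD4 library came from the donor or from the host could not be settled. The name gives the origin as labelled, and the folds compare the libraries so named.

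Over all genes, 3597 of 12622 tested (28.5%) were called at an adjusted p under 0.05 in edgeR's quasi-likelihood test, 1898 higher (15%) and 1699 lower (13.5%) in CD8αα from CD4. Of these, 1116 rose and 1073 fell by at least 1 on the log2 scale, 409 and 392 by at least 3, and 198 and 226 by at least 5. The libraries of the groups did not overlap for 3061 genes in the higher and 2704 in the lower direction. The median log2 fold change of all genes was 0.02. Library totals in place of TMM scaling gave 1650 higher and 2017 lower calls. With the Y-linked library alone, 937 genes were higher and 814 lower. All 3597 genes kept their sign there, but that library also entered the calls. In bulk RNA, fewer cells of a type and less RNA per cell cannot be told apart.

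**Figure D1:**
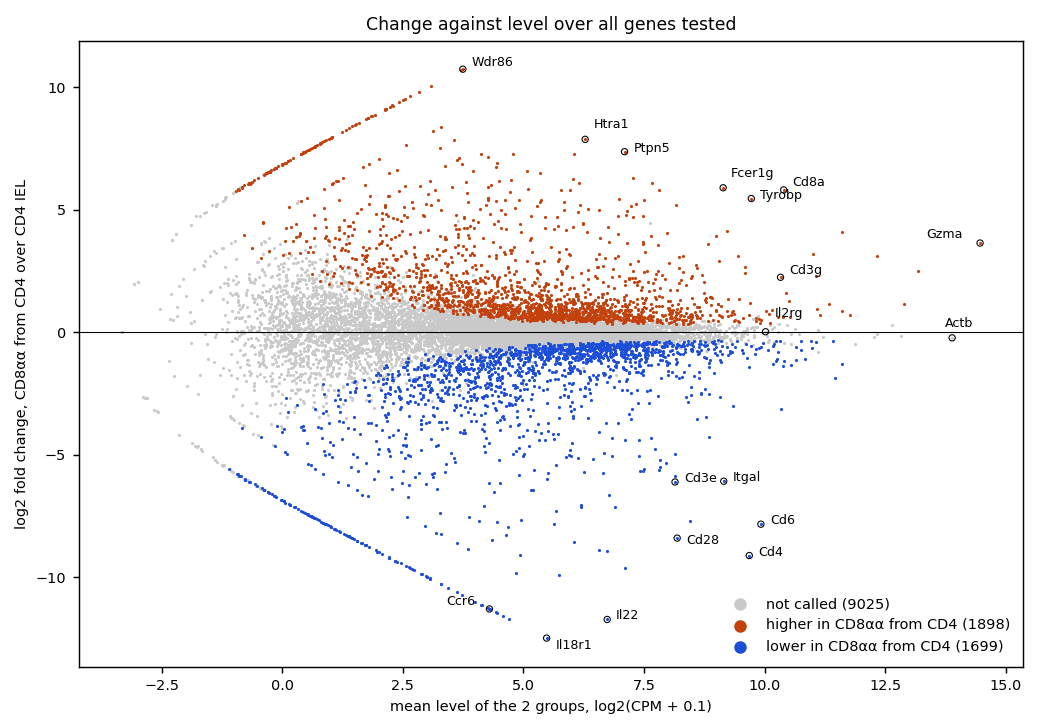
Each point is 1 of the 12622 genes tested, with its mean level in the groups on the horizontal axis (log2 CPM + 0.1) and the log2 fold change of CD8αα from CD4 over CD4 IEL on the vertical axis. The straight diagonal edges are genes with 0 reads in 1 group, whose plotted fold change depends on the model's prior count; 1898 genes were called higher and 1699 lower.

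The largest rises included the secreted serine proteases Htra1 and Htra3, the membrane protease gene Tmprss6, known from iron regulation in liver, and Ptpn5, a tyrosine phosphatase best known from neurons. Htra1 (ENSMUSG00000006205, chromosome 7 of mm10, 130936111 to 130985660) was at 188, 123 and 153 CPM in CD8αα from CD4, against 0.109, 1.44 and 0.449 in CD4 IEL. It was near the floor in every CD4 IEL library and its log2 fold change was 7.88 ± 0.52 (SE, edgeR adjusted p = 1.81e-07). Ptpn5 was at 289, 271 and 256 CPM in CD8αα from CD4, against 1.75, 0.392 and 2.85 in CD4 IEL (log2 fold change 7.37 ± 0.62). Htra3 was at 262, 360 and 298 CPM in CD8αα from CD4, against 4.91, 4.18 and 2.55 in CD4 IEL (log2 fold change 6.28 ± 0.29). Tmprss6 averaged 131 CPM in CD8αα from CD4 and 0.865 in CD4 IEL (log2 fold change 7.29 ± 0.59).

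The other 11 of the 15 largest rises had log2 fold changes between 6.18 and 7.28. Igsf5, a junctional adhesion molecule, was at 50.4, 54.0 and 60.7 CPM in CD8αα from CD4 and 0.545, 0.131 and 0.300 in CD4 IEL. Sh2d1b1, which encodes the SLAM receptor adaptor EAT-2, was at 133, 126 and 130 CPM in CD8αα from CD4 and 0.327, 4.70 and 0 in CD4 IEL. Nrp2, a receptor for semaphorins and VEGF, was at 59.6, 60.5 and 81.1 CPM in CD8αα from CD4 and 0.654, 1.18 and 0.150 in CD4 IEL. P2rx1 (an ATP-gated channel), Lphn2 (an adhesion G protein-coupled receptor), P4ha2 (a collagen prolyl hydroxylase subunit), March8 (a membrane ubiquitin ligase), Mrgpra9 (a Mas-related receptor), Asphd2 and the lectin receptors Klri1 and Klra7 completed the set. Reads of Klra7 and other Ly49 genes are uncertain, since the family has near-identical copies. Klri1 was uneven within CD8αα from CD4, at 53.5, 19.3 and 18.9 CPM, and at 0, 0.914 and 0 in CD4 IEL.

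The largest falls included cytokines of helper T cells, cytokine and chemokine receptors and T cell regulators. Of the 15, 11 had 0 reads in all 3 libraries of CD8αα from CD4, so their folds are lower bounds from 3 counts over the group. Il18r1, the IL-18 receptor, was at 0 in every library of CD8αα from CD4 and at 116, 88.0 and 63.7 CPM in CD4 IEL, at least 644-fold lower. Tnfsf11, which encodes RANKL, was at 0 against 47.7, 48.9 and 58.7 CPM, at least 358-fold lower. Il21 was at 0 against 44.5, 70.9 and 26.5 CPM, at least 336-fold lower. Il22 had 1 read in CD8αα from CD4 and was at 112, 277 and 251 CPM in CD4 IEL, a ratio of 4306 (95% counting interval 772.5 to 170100). Ankrd6, Il17re, Plcb4, Ccr6, Tbc1d4, Ermn, Tnfrsf25 and Hlf were likewise at 0, with bounds between 211-fold and 301-fold lower. Tox2 and Ccr4 had 2 and 1 reads in CD8αα from CD4. Ubash3a, a negative regulator of TCR signalling, was at 0.342, 0 and 0.780 CPM in CD8αα from CD4 and at 298, 271 and 253 in CD4 IEL (log2 fold change −9.60 ± 0.42).

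The signalling chains of antigen and Fc receptors moved in opposite directions, 3 higher and 3 lower of 7 tested. Fcer1g and Tyrobp encode FcRγ and DAP12, adaptors of activating NK, Fc and myeloid receptors. Fcer1g was at 1029, 1076 and 1228 CPM in CD8αα from CD4, against 17.1, 30.5 and 7.94 in CD4 IEL (log2 fold change 5.90 ± 0.54, edgeR adjusted p = 2.73e-06). Tyrobp was at 1428, 1669 and 1872 CPM in CD8αα from CD4, against 29.3, 59.6 and 24.0 in CD4 IEL (log2 fold change 5.46 ± 0.64). In CD4 IEL both were highest in replicate 2, the CD4 IEL library with the highest Xist, and lowest in replicate 3, where Xist was at 0. Of other genes that rose, taken as examples, Fcgr3, S1pr3, Cd244, Itgax, Cdh17 and Spp1 were also highest in replicate 2 of CD4 IEL. Epcam and Irf8 were highest in its replicate 1, and Klrb1a and Ptpn5 in its replicate 3. A link with Xist was not tested. Cd247, the ζ chain, was at 24.2, 13.3 and 20.6 CPM in CD8αα from CD4, against 341, 371 and 425 in CD4 IEL (log2 fold change −4.30 ± 0.21).

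The 3 CD3 genes lie side by side on chromosome 9 of mm10 and did not move together. Cd3g (ENSMUSG00000002033, 44969572 to 44980431, minus strand) was at 1902, 2133 and 2349 CPM in CD8αα from CD4, against 424, 465 and 458 in CD4 IEL (log2 fold change 2.25 ± 0.12). Cd3d (ENSMUSG00000032094, 44981793 to 44987052, plus strand) starts 1362 bases from the first base of Cd3g and runs the other way. It was at 11.6, 14.2 and 28.2 CPM in CD8αα from CD4, against 248, 217 and 234 in CD4 IEL (log2 fold change −3.69 ± 0.26). Cd3e (ENSMUSG00000032093, 44998743 to 45009590, minus strand) had a log2 fold change of −6.11 ± 0.38. All 3 differences left no overlap between the groups.

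The promoter windows of these 3 genes are shown because neighbours with separate starts changed in opposite directions. They are RefSeq sequences of build GRCm38.p6, from 250 bases before to 50 after the start, written 5′ to 3′ on the strand of the gene. Capitals mark matches on either strand to 5 short motifs. The letters AGGAAG were searched as the core that ETS factors bind. For TCF-1 and LEF-1 the core searched was CTTTGA on either strand. For the GATA factor family it was the run AGATAA on either strand. The E-box of E proteins was searched as CAGCTG on either strand. The RUNX core was searched as TGTGGT on either strand, and no match overlapped one of another motif.
Cd3g, chr9:44980382-44980681, minus strand: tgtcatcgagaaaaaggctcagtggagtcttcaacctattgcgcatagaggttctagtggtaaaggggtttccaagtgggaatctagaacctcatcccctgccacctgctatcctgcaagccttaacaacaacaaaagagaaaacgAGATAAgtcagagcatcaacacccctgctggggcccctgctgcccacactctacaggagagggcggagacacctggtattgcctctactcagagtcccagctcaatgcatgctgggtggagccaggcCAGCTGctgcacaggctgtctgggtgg
Cd3d, chr9:44981536-44981835, plus strand: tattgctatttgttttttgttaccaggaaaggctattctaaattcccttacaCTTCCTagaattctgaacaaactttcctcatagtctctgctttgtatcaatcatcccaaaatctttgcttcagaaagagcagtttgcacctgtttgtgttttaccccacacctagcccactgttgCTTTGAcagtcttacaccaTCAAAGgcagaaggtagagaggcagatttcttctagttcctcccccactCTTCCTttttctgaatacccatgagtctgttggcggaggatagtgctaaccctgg
Cd3e, chr9:45009562-45009861, minus strand: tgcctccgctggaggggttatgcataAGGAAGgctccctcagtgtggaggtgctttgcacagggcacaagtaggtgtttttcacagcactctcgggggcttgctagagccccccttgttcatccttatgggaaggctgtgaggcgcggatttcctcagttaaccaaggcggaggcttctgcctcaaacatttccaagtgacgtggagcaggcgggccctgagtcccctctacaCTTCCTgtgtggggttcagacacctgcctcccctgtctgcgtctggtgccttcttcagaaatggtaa

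In these windows Cd3d held 2 TCF-1/LEF-1 core and 2 ETS core matches, Cd3e held 2 ETS core matches, and Cd3g held 1 GATA core and 1 E-box match. The letters of the RUNX core were in none of the 3. The window of Fcer1g, searched the same way and not printed, held 1 RUNX core, 2 ETS core and 1 E-box match. These genes and the 5 motifs were chosen after the expression values were seen. Among 27025 promoter windows of the same length, 35.1% held the ETS core, 16.2% the TCF-1/LEF-1 core, 11.4% the GATA core, 16.1% the E-box and 16.9% the RUNX core. A match is a description of the letters and not evidence of binding.

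Receptors of costimulation and inhibition mostly fell, 19 lower and 6 higher of 30 tested, with a median log2 fold change of −1.76. With the Y-linked library alone the counts were 17 and 5. Cd28, the costimulator of naive T cells, was at 1.37, 0.573 and 3.43 CPM in CD8αα from CD4, against 708, 464 and 572 in CD4 IEL (log2 fold change −8.40 ± 0.48). Cd6, an adhesion receptor of T cells, was at 4.27, 2.75 and 18.9 CPM in CD8αα from CD4, against 1911, 1955 and 1939 in CD4 IEL (log2 fold change −7.83 ± 0.56). Slamf6 fell by 7.74 on the log2 scale. The 3 largest rises of the list were Cd244 (the SLAM receptor 2B4), Tnfrsf9 (4-1BB) and Lag3, an inhibitory receptor for MHC class II. Cd244 was at 1198, 1369 and 1203 CPM in CD8αα from CD4, against 94.3, 212 and 128 in CD4 IEL (log2 fold change 3.12 ± 0.28). Lag3 averaged 1343 ± 219 CPM in CD8αα from CD4 and 211 ± 74.0 in CD4 IEL (log2 fold change 2.67 ± 0.29). Tigit and Tnfrsf18 (GITR) were shared, at 127 and 92.3 CPM in CD8αα from CD4 against 129 and 99.2 in CD4 IEL.

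Of 18 genes tested in the list labelled activating NK and Fc receptors, 9 were higher and 3 lower. The list also holds inhibitory receptors, among them Klrc1 (NKG2A), which was one of the 9, so its count does not measure activating receptors alone. Fcgr3, an IgG receptor that signals through FcRγ, was at 284, 283 and 311 CPM in CD8αα from CD4, against 6.21, 16.2 and 1.80 in CD4 IEL (log2 fold change 5.17 ± 0.48). Klrb1a, of the NKR-P1 lectin family, was at 138, 119 and 165 CPM in CD8αα from CD4, against 2.73, 3.78 and 5.24 in CD4 IEL (log2 fold change 5.18 ± 0.32). Cd226 (DNAM-1) ran the other way, at 26.1, 22.8 and 30.9 CPM in CD8αα from CD4, against 314, 251 and 235 in CD4 IEL. Of the defining markers of NK cells and group 1 innate lymphoid cells, Klrb1c rose to 205 ± 40.3 CPM in CD8αα from CD4, against 15.8 ± 5.05 in CD4 IEL. Ncr1 was at 4.27, 0 and 2.34 CPM in CD8αα from CD4 and 4.69, 7.18 and 4.04 in CD4 IEL, and Eomes at 0, 0 and 0.468 CPM in CD8αα from CD4 and 3.49, 3.78 and 2.25 in CD4 IEL. The whole list of 16 tested markers of these cells had 7 higher and 6 lower, with a median log2 fold change of −0.13. Its sum was 9937 to 11900 CPM in CD8αα from CD4 and 2429 to 3031 in CD4 IEL, of which Cd7, Tyrobp and Fcer1g averaged 5909, 1656 and 1111 CPM in CD8αα from CD4 and 348, 37.6 and 18.5 in CD4 IEL. Markers of group 2 and 3 innate lymphoid cells had 10 lower and none higher of 14, and those of γδ T cells 7 lower and none higher of 8. Of 3 B cell genes tested 1 was higher, Cd79b, a signalling chain of the B cell receptor, at 45.1, 47.9 and 54.9 CPM in CD8αα from CD4, against 6.76, 3.13 and 4.49 in CD4 IEL. The B cell list summed to 51.1 to 66.2 CPM in CD8αα from CD4 and 5.54 to 10.7 in CD4 IEL, with a median log2 fold change of 2.51, while Ms4a1 had 3 reads in CD8αα from CD4 and 0 in CD4 IEL. Of 3 mast cell and basophil genes tested, Cpa3, a mast cell protease, was higher with 48 reads in CD8αα from CD4 and 4 in CD4 IEL, and Hdc, which makes histamine, was lower. The Cpa3 call was lost without CD4 IEL replicate 1 or 3 or CD8αα from CD4 replicate 1 or 3 (edgeR adjusted p between 0.0564 and 0.0782). The Hdc call was lost without CD4 IEL replicate 1 or 2 or CD8αα from CD4 replicate 1 or 3 (edgeR adjusted p between 0.0523 and 0.0857). That list summed to 115 to 154 CPM in CD8αα from CD4 and 77.2 to 126 in CD4 IEL, and Mcpt1 had 0 reads in both groups. Goblet, Paneth and stem cell markers had 1 higher of 6 tested, Zg16. They summed to 6.76 to 24.8 CPM in CD8αα from CD4 and 0.545 to 1.96 in CD4 IEL. Lyz1 had 0 reads in both groups, and Muc2, not called, had 63 reads in CD8αα from CD4 and 8 in CD4 IEL. The share called was 16.7% in this list and 33.3% in the B cell list, beside 28.5% of all genes. Cpa3, Hdc and Zg16 were chosen after their values were seen. The part of these cell types in the results was not tested.

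Cytokine receptors fell more often than they rose, with 21 lower and 3 higher of 46 tested and a median log2 fold change of −0.78. The lost receptors included those for IL-18, IL-23 and IL-17 family cytokines. Il23r was at 0 in CD8αα from CD4 and 14.5 CPM on average in CD4 IEL, at least 103-fold lower. The IL-2 receptor chains parted. Il2ra, the high-affinity chain, was at 0.342, 0 and 0.156 CPM in CD8αα from CD4, against 28.1, 34.8 and 37.9 in CD4 IEL, a ratio of 231.5 (95% counting interval 78.9 to 1125). Il2rb, the signalling chain shared by the IL-2 and IL-15 receptors, was at 3484, 3802 and 3352 CPM in CD8αα from CD4, against 679, 749 and 755 in CD4 IEL (log2 fold change 2.29 ± 0.11). Il2rg, the common γ chain, was at 1000, 1107 and 1032 CPM in CD8αα from CD4, against 987, 1030 and 1078 in CD4 IEL, and the groups overlapped. Acvr2a and Tgfbr1, receptors of the TGF-β superfamily, were the other rises, with log2 fold changes of 1.33 and 0.96. The Acvr2a call was lost without any 1 library other than CD4 IEL replicate 2 (edgeR adjusted p between 0.0698 and 0.142).

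Chemokine receptors fell in 12 of 17 tested genes and rose in 1, Ccrl2, with a median log2 fold change of −1.72. Ccrl2 was not called without CD4 IEL replicate 1 (log2 fold change 1.28, edgeR adjusted p = 0.0559). Ccr4 and Ccr6, receptors of helper T cell subsets, were at or near 0. Ccr9, the receptor of small intestinal homing, was at 221, 321 and 277 CPM in CD8αα from CD4, against 595, 686 and 672 in CD4 IEL (log2 fold change −1.25 ± 0.18). Cxcr6 averaged 444 ± 48.0 CPM in CD8αα from CD4 and 1185 ± 40.2 in CD4 IEL. Ccr9 and Cxcr6 were chosen after their values were seen.

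Other G protein-coupled receptors went both ways, 16 higher and 16 lower of 45 tested. The sphingosine 1-phosphate receptors did so within 1 family. S1pr1, needed for exit from tissue, was at 1.02, 0.573 and 0 CPM in CD8αα from CD4, against 49.3, 29.1 and 35.8 in CD4 IEL (log2 fold change −6.14 ± 0.56). S1pr3 was at 135, 160 and 137 CPM in CD8αα from CD4, against 3.82, 14.6 and 1.498 in CD4 IEL (log2 fold change 4.43 ± 0.54). The adenosine receptor Adora2b rose by 6.17 and Gpr35 by 4.20 on the log2 scale, while Cd97 fell by 5.68. Among 21 purinergic receptor and ectonucleotidase genes, 7 were higher and 2 lower. Entpd1 (CD39), which breaks down ATP, was at 219, 199 and 217 CPM in CD8αα from CD4, against 27.0, 30.1 and 19.3 in CD4 IEL (log2 fold change 3.05 ± 0.26). Nt5e (CD73), which makes adenosine from AMP, was shared at 313 ± 13.4 CPM in CD8αα from CD4 against 280.4 ± 35.5 in CD4 IEL. P2rx7, an ATP receptor, fell by 1.60 on the log2 scale.

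**Figure D2:**
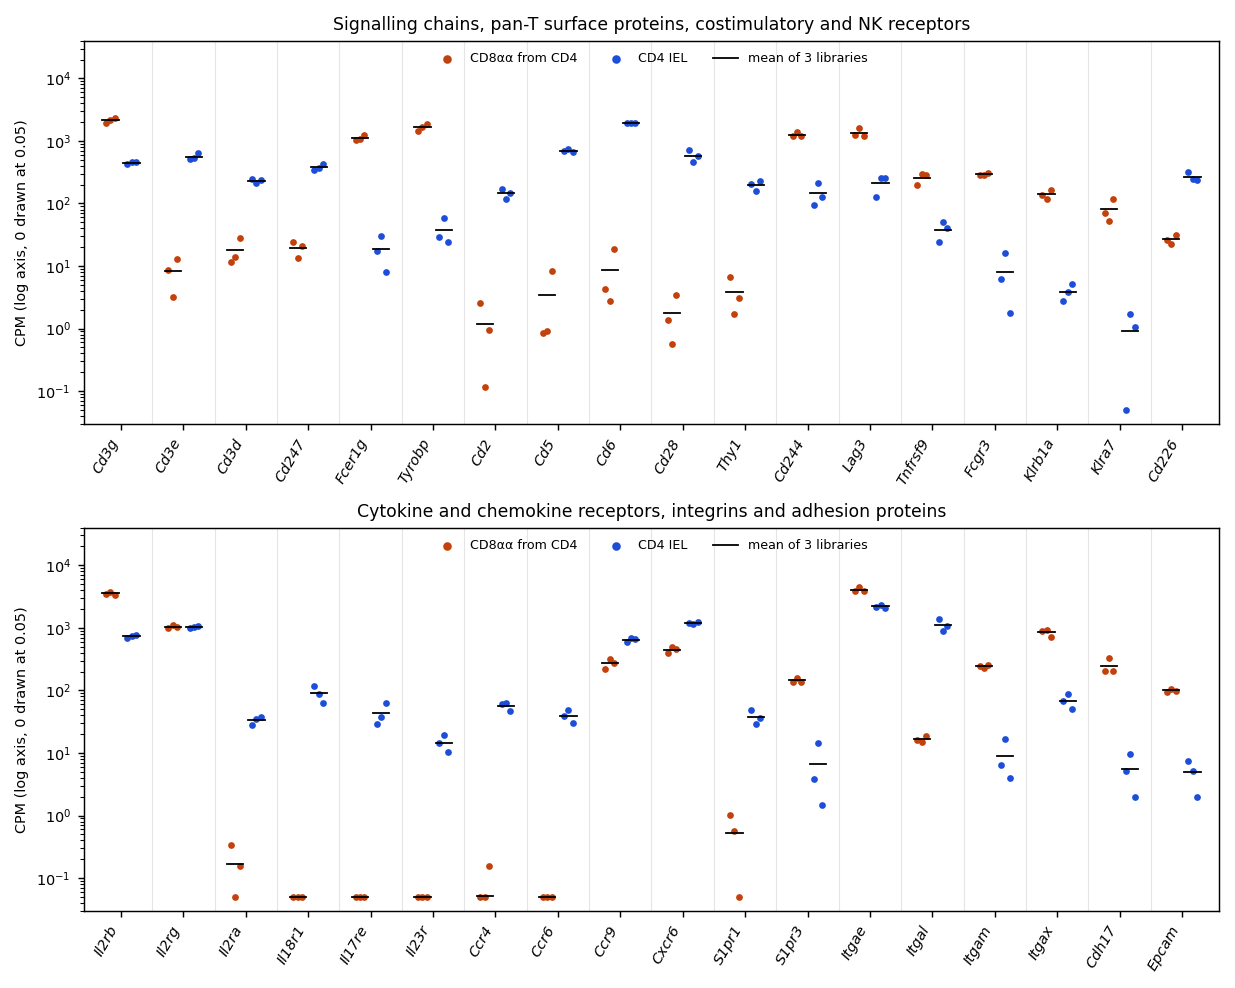
Each dot is the level of a gene in 1 library (CPM, log axis, libraries with 0 reads drawn at 0.05), with CD8αα from CD4 left of CD4 IEL for each gene and the mean of 3 libraries as a bar. The groups lie apart for every gene shown except Il2rg, and Cd3g stands above its CD4 IEL level while Cd3e, Cd3d and Cd247 stand below theirs.

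Integrin chains changed in composition, with 6 higher and 5 lower of 20 tested, 3 of them lower without any 1 library of CD8αα from CD4. The αL chain gene Itgal, of the lymphocyte integrin LFA-1, was at 16.2, 15.2 and 18.4 CPM in CD8αα from CD4, against 1399, 892 and 1079 in CD4 IEL (log2 fold change −6.08 ± 0.39). The 3 largest rises were the other leukocyte α chains Itgam, Itgax and Itgad. Itgax was at 888, 940 and 707 CPM in CD8αα from CD4, against 67.3, 89.0 and 49.6 in CD4 IEL (log2 fold change 3.62 ± 0.26). Itgam averaged 241 ± 15.2 CPM in CD8αα from CD4 and 8.98 ± 6.67 in CD4 IEL. Itgae, the αE chain that holds IEL to E-cadherin, averaged 4055 ± 403 CPM in CD8αα from CD4 and 2203 ± 121 in CD4 IEL (log2 fold change 0.88 ± 0.13; chosen after its values were seen). Itgam and Itgax also stand in the list of myeloid markers, where 4 of 17 tested were higher and 1 lower. That is a share of 29.4% called beside 28.5% of all genes. The defining myeloid markers Lyz2, Csf1r and Cd68 averaged 6.26, 11.95 and 9.73 CPM in CD8αα from CD4 and 12.9, 21.6 and 17.3 in CD4 IEL, and none of the 3 was called. Cd68 passed as lower without CD8αα from CD4 replicate 3 (log2 fold change −1.08) and Csf1r without CD4 IEL replicate 3 (−1.17). The summed myeloid list was at 1379 to 1577 CPM in CD8αα from CD4 and 236 to 439 in CD4 IEL, while its median log2 fold change was −0.68.

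Adhesion and junction genes split evenly, 14 higher and 15 lower of 50 tested. Cdh17, a gut cadherin, was at 207, 329 and 202 CPM in CD8αα from CD4, against 5.23, 9.66 and 1.95 in CD4 IEL (log2 fold change 5.44 ± 0.46). Epcam, an adhesion protein of epithelium, was at 95.5, 106 and 99.6 CPM in CD8αα from CD4, against 7.52, 5.22 and 1.95 in CD4 IEL (log2 fold change 4.32 ± 0.46). These 2 and Cdh1 (E-cadherin, log2 fold change 1.84) were the 3 of 24 enterocyte markers called, all higher. That is a share of 12.5% called beside 28.5% of all genes. The other 21 were not called, and the median of the list was 1.06. The whole enterocyte list summed to 898 to 1212 CPM in CD8αα from CD4 and 150.4 to 361 in CD4 IEL. The defining markers Vil1, Fabp1 and Krt8 averaged 12.9, 13.7 and 14.2 CPM in CD8αα from CD4 and 8.38, 6.38 and 7.21 in CD4 IEL, with overlapping libraries. The part of enterocyte RNA in the adhesion results was not tested.

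Among lists of ligands, TNF superfamily genes had 8 lower and 3 higher of 12 tested, and cytokines 18 lower and 5 higher of 26. Cd40lg, the helper signal to B cells, was at 0.683, 0.458 and 0.156 CPM in CD8αα from CD4, against 261, 198 and 182 in CD4 IEL (log2 fold change −8.91 ± 0.47). Tnf averaged 4.72 ± 1.09 CPM in CD8αα from CD4 and 170.4 ± 36.9 in CD4 IEL. Il17a averaged 0.385 ± 0.0725 CPM in CD8αα from CD4 and 188 ± 71.3 in CD4 IEL, and Ifng 40.3 ± 22.2 CPM in CD8αα from CD4 and 294 ± 36.0 in CD4 IEL. Il17a was chosen after its values were seen. The death ligand genes Tnfsf10 (TRAIL) and Fasl rose, with log2 fold changes of 0.92 and 0.66. The largest cytokine rises were Spp1 (osteopontin), Il34, a ligand of the CSF-1 receptor, and Il7. Spp1 was at 398, 508 and 427 CPM in CD8αα from CD4, against 3.82, 14.1 and 5.69 in CD4 IEL (log2 fold change 5.83 ± 0.76). Il34 was at 38.2, 54.4 and 33.9 CPM in CD8αα from CD4, against 0.872, 2.09 and 0 in CD4 IEL (log2 fold change 5.36 ± 0.60).

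Transcription factors of T cell identity fell, 20 lower and 3 higher of 30 tested, with a median log2 fold change of −1.54. With the Y-linked library alone, 15 were lower and 1 higher. Bcl11b, which fixes T cell commitment, was at 15.03, 8.02 and 23.1 CPM in CD8αα from CD4, against 372, 345 and 512 in CD4 IEL (log2 fold change −4.75 ± 0.32). Tcf7, which encodes TCF-1, was at 4.10, 0.115 and 2.81 CPM in CD8αα from CD4, against 246, 178 and 226 in CD4 IEL (log2 fold change −6.64 ± 0.56). Tcf4 (the E protein E2-2), Tox and Ikzf3 (Aiolos) were the 3 that rose. Tcf4 averaged 108 ± 13.5 CPM in CD8αα from CD4 and 10.3 ± 2.91 in CD4 IEL (log2 fold change 3.38 ± 0.49). The coreceptor fate factors moved little: Runx3 averaged 570.4 ± 12.2 CPM in CD8αα from CD4 and 404 ± 45.9 in CD4 IEL (log2 fold change 0.50 ± 0.14, edgeR adjusted p = 0.0184). The Runx3 call was lost without CD4 IEL replicate 1 or CD8αα from CD4 replicate 2 or 3 (edgeR adjusted p between 0.052 and 0.0959). Zbtb7b, which encodes ThPOK, averaged 18.1 ± 2.06 CPM in CD8αα from CD4 and 24.3 ± 4.35 in CD4 IEL and was not called. Runx3, Zbtb7b and Bcl11b were chosen after their values were seen.

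Innate, effector and residency factors had 8 higher and 16 lower of 39 tested, with 5 and 4 higher without CD8αα from CD4 replicates 2 and 3. Zbtb16, which encodes PLZF of innate-like lymphocytes, was at 26.8, 21.8 and 18.7 CPM in CD8αα from CD4, against 0, 0.261 and 0.899 in CD4 IEL (log2 fold change 5.93 ± 0.78). Irf8 was at 313, 318 and 329 CPM in CD8αα from CD4, against 72.6, 57.0 and 39.8 in CD4 IEL (log2 fold change 2.50 ± 0.42). Irf4, a factor induced by antigen receptor signals, was at 11.8, 11.7 and 13.9 CPM in CD8αα from CD4, against 319, 277 and 194 in CD4 IEL (log2 fold change −4.40 ± 0.31). Klf3 fell by 5.03 on the log2 scale. Id2 and Zeb1 were shared, with Id2 at 464 ± 42.4 CPM in CD8αα from CD4 against 472 ± 48.9 in CD4 IEL. Tbx21 (T-bet; chosen after its values were seen) averaged 338 ± 33.1 CPM in CD8αα from CD4 and 405 ± 51.1 in CD4 IEL, with a log2 fold change of −0.26 ± 0.13, and was not called, except with library totals (−0.34, edgeR adjusted p = 0.0414).

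Of 16 NF-κB and NFAT genes tested, 11 were lower and none higher, with a median log2 fold change of −0.86. Nfkbiz, an inducible NF-κB cofactor, was at 66.9, 64.2 and 51.8 CPM in CD8αα from CD4, against 780, 761 and 601 in CD4 IEL (log2 fold change −3.55 ± 0.24). Nfkbia, the inhibitor that NF-κB induces, averaged 121 ± 27.1 CPM in CD8αα from CD4 and 700 ± 54.8 in CD4 IEL. Nr4a1, an immediate early gene of TCR signalling, was at 272, 273 and 250 CPM in CD8αα from CD4, against 2528, 2100 and 2368 in CD4 IEL (log2 fold change −3.14 ± 0.14). Egr2 fell by 2.995 and Fosb by 1.82 on the log2 scale. Of 32 AP-1, EGR and CREB/ATF genes, 8 were lower and 2 higher, a share of 31.25% called beside 28.5% of all genes. Rora fell by 5.62 on the log2 scale, and of 27 nuclear receptors 7 were lower and 2 higher (33.3% called). Smad3, a mediator of TGF-β signals, fell by 5.75, while the ligand gene Tgfb3 rose by 2.09.

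**Figure D3:**
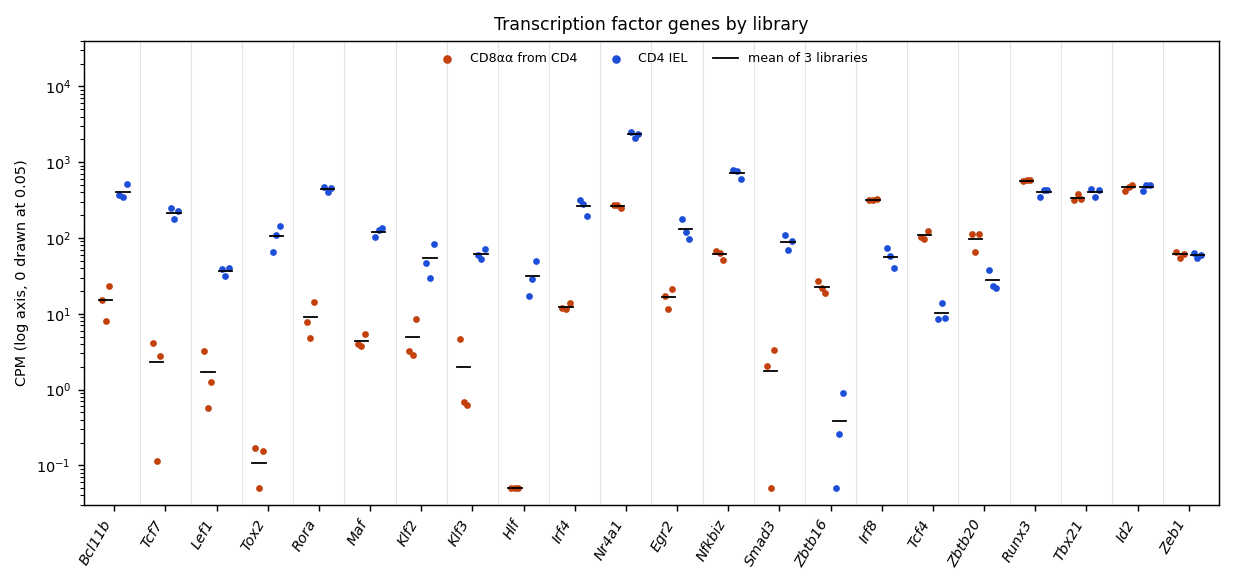
Each dot is the level of a transcription factor gene in 1 library (CPM, log axis, libraries with 0 reads drawn at 0.05), with CD8αα from CD4 left of CD4 IEL and the mean of 3 libraries as a bar. From Bcl11b to Smad3 the CD8αα from CD4 libraries lie below, from Zbtb16 to Runx3 above, and for Tbx21, Id2 and Zeb1 the groups overlap.

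Among metabolic lists, glycolysis had 10 lower and 2 higher of 26 tested, with a median log2 fold change of −0.49. Hk2, an inducible hexokinase, was at 3.24, 4.47 and 3.59 CPM in CD8αα from CD4, against 41.5, 54.7 and 36.7 in CD4 IEL (log2 fold change −3.54 ± 0.32). Slc16a1, the lactate transporter MCT1, averaged 7.95 ± 1.04 CPM in CD8αα from CD4 and 54.6 ± 4.84 in CD4 IEL, whereas Slc16a3 (MCT4) rose by 1.14 on the log2 scale. Pfkfb3, an activator of glycolysis, fell by 1.76. Aldoa was shared, with 528 CPM in CD8αα from CD4, against 506 in CD4 IEL. With the Y-linked library alone, 5 glycolysis genes were lower and none higher.

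Nuclear genes of oxidative phosphorylation had 18 higher and none lower of 83 tested, with a median log2 fold change of 0.59. The 18 are 21.7% of the list, a share of calls below the 28.5% of all genes in either direction and above the 15% of all genes that rose. With library totals 13 were higher and 2 lower. The count of higher genes was 7 without CD4 IEL replicate 1 or 2, 8 without CD8αα from CD4 replicate 2 and 6 without its replicate 3. The largest called rise was that of Cox8a, a subunit of cytochrome c oxidase, at 115, 144 and 173 CPM in CD8αα from CD4, against 74.3, 70.0 and 57.2 in CD4 IEL (log2 fold change 1.10 ± 0.36, edgeR adjusted p = 0.0348). Its call was lost without any 1 of the CD4 IEL libraries or CD8αα from CD4 replicate 2 or 3 (edgeR adjusted p between 0.0748 and 0.117). Mitochondrial ribosomal protein genes had 18 higher and 1 lower of 76, a share of 25% called beside 28.5% of all genes, and cytosolic ones 2 lower of 81. The 18 became 7, 10 and 7 without CD4 IEL replicate 1, CD4 IEL replicate 2 and CD8αα from CD4 replicate 3. The tricarboxylic acid cycle had 4 higher and 4 lower of 30, a share of 26.7% called beside 28.5% of all genes, with Sdha shared. The 4 lower became 1 without CD4 IEL replicate 1, and 2 and 1 without the first and second replicates of CD8αα from CD4. The largest rises of the cycle were Pdk2, a kinase that restrains pyruvate entry, and Idh2, the mitochondrial NADP isocitrate dehydrogenase, with log2 fold changes of 2.1 and 1.92. The 13 mitochondrially encoded genes in the table held 0 reads, so they say nothing here.

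Cholesterol synthesis genes had 11 higher and none lower of 24 tested, with a median log2 fold change of 0.60. Fdps, which makes farnesyl pyrophosphate, was at 260, 342 and 350 CPM in CD8αα from CD4, against 118, 153 and 181 in CD4 IEL (log2 fold change 1.07 ± 0.21). Lss averaged 232 ± 16.2 CPM in CD8αα from CD4 and 119 ± 12.8 in CD4 IEL. The regulator Srebf2 was among 9 shared members. Fatty acid oxidation had 8 higher and 1 lower of 32, a share of 28.1% called beside 28.5% of all genes. With the Y-linked library alone, 5 cholesterol synthesis genes were higher.

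Glutathione and redox genes had 17 higher and 3 lower of 52 tested. Gpx8, a glutathione peroxidase family member of the endoplasmic reticulum, was at 113, 152 and 156 CPM in CD8αα from CD4, against 0.872, 3.26 and 2.097 in CD4 IEL (log2 fold change 6.10 ± 0.37). Gstm1 and Mgst2, glutathione transferases, rose by 5.68 and 2.52 on the log2 scale. Of 17 eicosanoid genes 5 were higher, a share of 29.4% called beside 28.5% of all genes. They included Lta4h, which makes leukotriene B4, and Ptgs1, a cyclooxygenase. The Ptgs1 call was lost without CD8αα from CD4 replicate 1 (edgeR adjusted p = 0.0575). Lta4h was at 584, 656 and 619 CPM in CD8αα from CD4, against 252, 226 and 260 in CD4 IEL (log2 fold change 1.33 ± 0.12). Ltb4r1, a leukotriene B4 receptor, was at 0 in CD8αα from CD4 and 14.6 CPM in CD4 IEL, a lower bound of 100-fold. Iron and heme genes had 7 higher and 1 lower of 24, a share of 33.3% called beside 28.5% of all genes. Tfrc, the transferrin receptor, was lower by 1.16 and Ftl1, ferritin light chain, higher by 1.01 on the log2 scale.

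Nucleotide synthesis had 13 lower and none higher of 38 tested, and serine, glycine and folate metabolism 10 lower and 2 higher of 23. With replicate 2 of CD4 IEL left out the 10 became 5, and with replicate 2 of CD8αα from CD4 left out, 6. Impdh1, a guanine nucleotide enzyme, averaged 8.62 ± 1.90 CPM in CD8αα from CD4 and 52.3 ± 3.24 in CD4 IEL. Rrm2, a subunit of ribonucleotide reductase, averaged 34.5 ± 6.46 CPM in CD8αα from CD4 and 147 ± 24.4 in CD4 IEL. Folr4, a T cell gene named for the folate receptor family, was at 0 in CD8αα from CD4 and 15.8 CPM in CD4 IEL, at least 117-fold lower. Its level does not measure folate use. Cell cycle genes had 37 lower and 2 higher of 46, with a median log2 fold change of −1.60, and with the Y-linked library alone 31 were lower and none higher. Ccnb2, a mitotic cyclin, averaged 7.81 ± 4.59 CPM in CD8αα from CD4 and 51.0 ± 18.4 in CD4 IEL. Odc1, the first enzyme of polyamine synthesis, and Ass1, of arginine synthesis, fell by 1.96 and 4.33 on the log2 scale. The amino acid transporter Slc16a10 rose by 2.90.

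The hypoxia response list did not move one way, with 7 lower and 3 higher of 19 tested. Hif1a averaged 118 ± 10.7 CPM in CD8αα from CD4 and 395 ± 23.5 in CD4 IEL (log2 fold change −1.75 ± 0.24), and Egln3, an oxygen sensor, fell by 5.92 on the log2 scale. Car9 and Bnip3, usual targets of HIF-1, rose by 3.38 and 3.08. Car9 was at 21.2, 16.0 and 13.1 CPM in CD8αα from CD4, against 1.85, 1.83 and 1.05 in CD4 IEL.

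**Figure D4:**
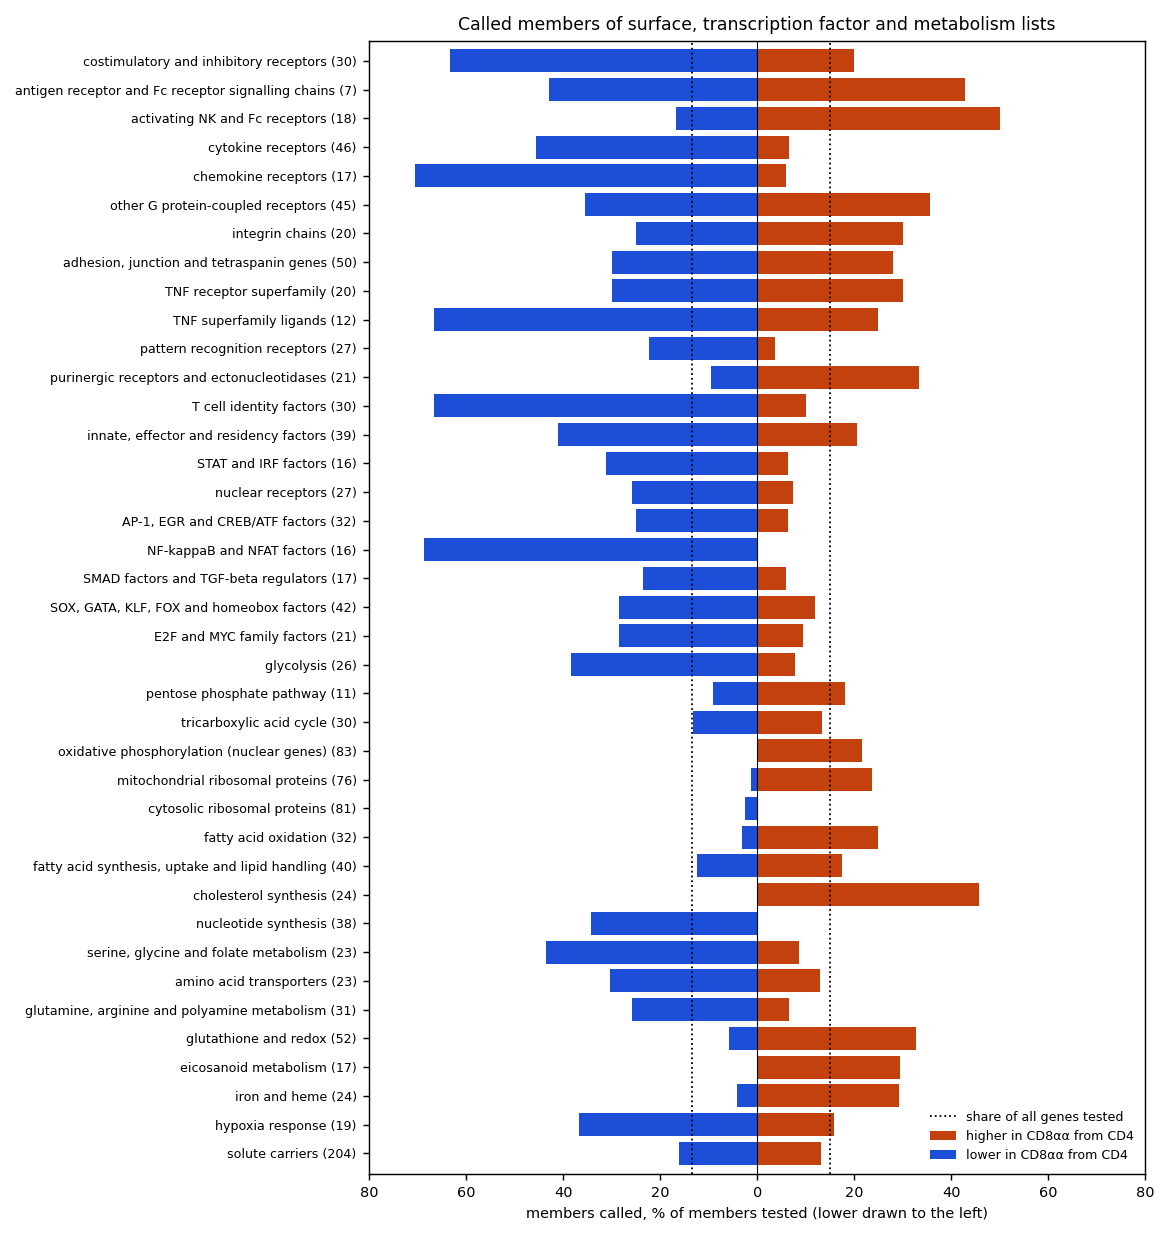
Bars give the share of tested members (number in brackets) called higher, to the right, and lower, to the left, in CD8αα from CD4 for each surface, transcription factor and metabolism list, with dotted lines at the shares over all genes tested, 15% higher and 13.5% lower. Chemokine receptors, NF-kappaB and NFAT factors, T cell identity factors and TNF superfamily ligands reach farthest left. The list labelled activating NK and Fc receptors, which also holds inhibitory ones, and cholesterol synthesis reach farthest right.

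Granule genes rose in 15 of 23 tested and fell in 3, with a median log2 fold change of 0.73. Gzma had the most reads of any gene in CD8αα from CD4, at 33550, 45130 and 47200 CPM, against 1842, 5180 and 3065 in CD4 IEL (log2 fold change 3.64 ± 0.40). Prf1, perforin, averaged 937 ± 211 CPM in CD8αα from CD4 and 124 ± 41.2 in CD4 IEL. TCR-proximal signalling genes had 33 lower and 10 higher of 63. The largest rises there were Syk, the kinase that FcRγ and DAP12 recruit, its adaptor Lat2, and the TEC kinase Txk. Syk was at 320, 323 and 302 CPM in CD8αα from CD4, against 6.87, 14.5 and 3.59 in CD4 IEL (log2 fold change 5.23 ± 0.65). Lat2 was at 537, 581 and 550 CPM in CD8αα from CD4, against 11.6, 23.9 and 9.88 in CD4 IEL (log2 fold change 5.20 ± 0.35). Both were highest in replicate 2 within CD4 IEL. The kinase gene Pim2 rose by 2.40 on the log2 scale and Pim1 fell by 0.98. Cish, a feedback inhibitor of cytokine signals, fell by 2.24. BCL-2 family and death regulator genes had 6 higher and 12 lower of 31 tested, with a median log2 fold change of 0.01. Bmf rose by 3.22, Bcl2 by 2.15 and Bid by 0.92, while Bik fell by 3.40 and Birc5 by 2.07.

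Genes lost or gained outright were counted by level, with no test, as those at or under 1 CPM in all 3 libraries of 1 group and at or above 20 CPM in all 3 of the other. There were 26 such genes lost in CD8αα from CD4, 20 with the lower limit at 0.5 CPM and 36 at 2 CPM. Apart from those named above they included Kcnn4 (a calcium-activated potassium channel), Cpm, Angptl2, St8sia1, Synj2, Il1r1 and Tspan32, which was at 0 in CD8αα from CD4 and at least 186-fold lower. In CD8αα from CD8αβ, 23 of the 26 were also at or under 1 CPM in every library. In CD8αβ IEL only 5 reached 20 CPM in every library (A430093F15Rik, Gm8369, Kcnn4, Slamf6 and Ubash3a), and 2, Il17re and Plcb4, were at or under 1 CPM in all 3. At the limits, Kcnn4 reached 0.802 CPM in CD8αα from CD4 and S1pr1, just outside, 1.02 CPM, while the lowest CD4 IEL library had 21.2 CPM of Plcb4 and 18.2 CPM of Ermn.

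The 7 genes gained, which CD4 IEL lacked, were Gstm1, Hdac9, Igsf5, Lphn2, P2rx1, P4ha2 and Wdr86. The count was 2 with the lower limit at 0.5 CPM and 21 at 2 CPM. Wdr86 was at 26.1, 28.6 and 25.1 CPM in CD8αα from CD4 and at 0 in every CD4 IEL library, at least 211-fold higher. Hdac9, a histone deacetylase, was at 24.1, 28.6 and 22.5 CPM in CD8αα from CD4 and 0.327, 0.131 and 0 in CD4 IEL. In CD8αα from CD8αβ, 6 of the 7 were at or above 20 CPM in every library, and Hdac9 averaged 9.18 CPM. Just inside the limits were Gstm1, with at most 0.914 CPM in CD4 IEL, and Hdac9, with at least 22.5 CPM in CD8αα from CD4. Just outside were Emilin1, at 1.04 CPM, and Adrbk2, at 19.8 CPM.

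**Figure D5:**
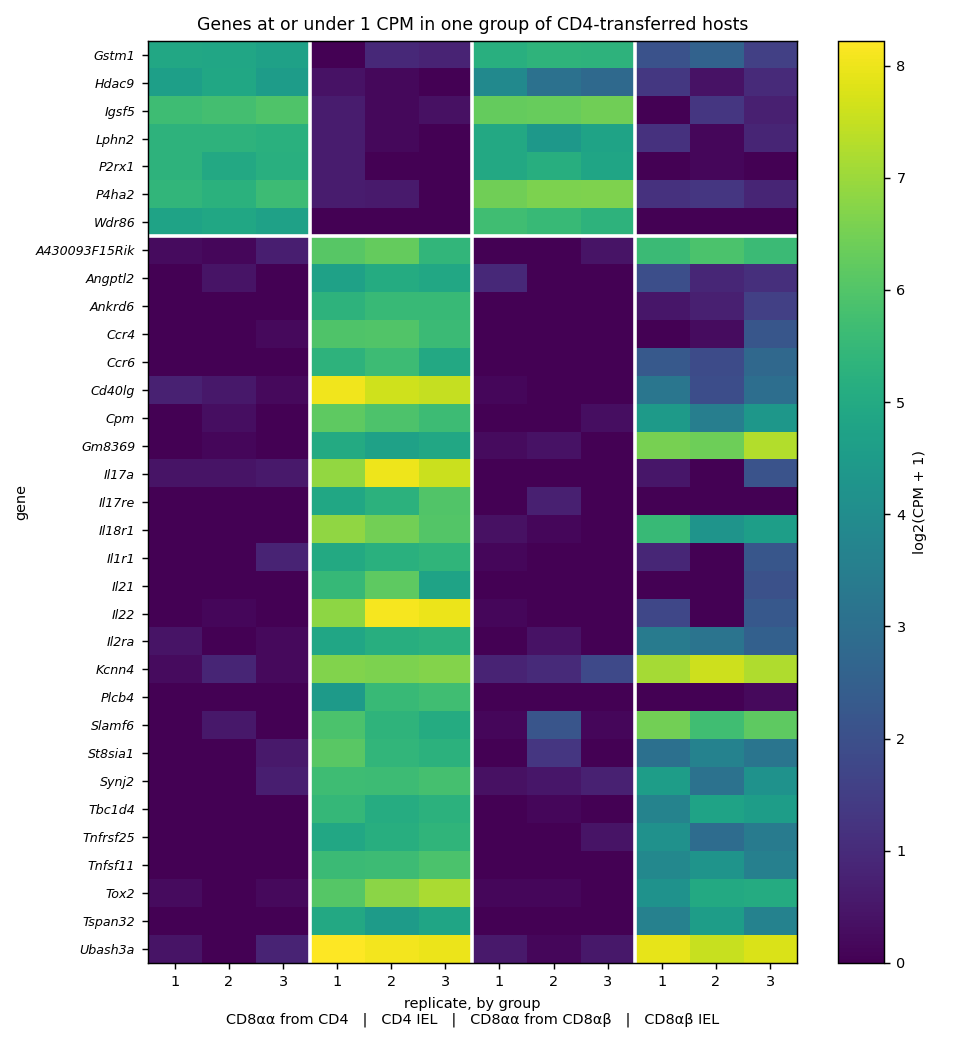
The colour gives log2(CPM + 1) of the 7 gained and, below the white line, 26 lost genes in all 12 libraries, with columns grouped by library type. The columns of CD8αα from CD8αβ are dark for 23 of the 26 lost genes at the 1 CPM limit, while CD8αβ IEL libraries are between the groups for most of them.

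What the groups shared was counted as genes whose 95% interval of the log2 fold change lay wholly within ±0.5, a description of similarity that a p over the threshold does not give. It held for 1088 of 12622 genes (8.62%), of which 1082 averaged at least 1 CPM in both groups. The most abundant apart from ribosomal proteins were Actb, H2-K1, Eef1a1, Shisa5, Stk17b, Rac2, Hspa5, Prkar1a, Il2rg, Akna, Tmbim6 and Cfl1, genes of the cytoskeleton, antigen presentation, translation, protein folding and lymphocyte signalling. Actb was at 12750, 13920 and 15270 CPM in CD8αα from CD4 and 14890, 14690 and 19510 in CD4 IEL. Stk17b, a kinase of lymphocytes, was at 1536, 1786 and 1621 CPM in CD8αα from CD4 and 1679, 1606 and 1257 in CD4 IEL. Cholesterol synthesis had 9 shared of 24, the tricarboxylic acid cycle 8 of 30 and mitochondrial ribosomal proteins 10 of 76. The lists of T cell identity factors, chemokine receptors, integrins and cell cycle genes had none, as had others such as histones and serpins. With 8.62% of all genes shared, and a rule that genes with wide intervals cannot pass, none in a short list says little about it. In the TCR-proximal list Ptpn22, a phosphatase, and Vav1, an exchange factor, were shared, Ptpn22 at 823 CPM in CD8αα from CD4 against 763 in CD4 IEL.

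Whether these changes differ from those in hosts given CD8αβ T cells was tested as the difference of the change of CD8αα from CD4 over CD4 IEL and the change of CD8αα from CD8αβ over CD8αβ IEL. It passed for 323 of 12622 genes (2.56%). Cd4 and Cd8b1, genes of the coreceptors that name the groups, stood among its extremes and are no independent result. Cd8b1 averaged 2.95 CPM in CD8αα from CD8αβ and 1124 in CD8αβ IEL. It averaged 17.5 ± 2.77 CPM in CD8αα from CD4 and 5.05 ± 1.70 in CD4 IEL (log2 fold change 1.76 ± 0.21). Whether the sort for CD8αα has a part in this rise was not tested. Klrc1, which encodes NKG2A, averaged 28.3 ± 6.43 CPM in CD8αα from CD4 and 12.99 ± 3.19 in CD4 IEL, while it averaged 3.84 CPM in CD8αα from CD8αβ and 239.8 in CD8αβ IEL. Maf, a factor of helper T cells, was at 3.93, 3.78 and 5.46 CPM in CD8αα from CD4, against 104, 126 and 134 in CD4 IEL, and averaged 12.4 CPM in CD8αα from CD8αβ and 8.90 in CD8αβ IEL. Tnfsf8, which encodes CD30L, averaged 23.6 CPM in CD8αα from CD4 and 98.9 in CD4 IEL, and 127 CPM in CD8αα from CD8αβ and 10.1 in CD8αβ IEL. The count was 13 with only the CD8αα libraries that held Y-linked transcripts, 1 of each origin. It was 200, 161, 147, 156 and 175 without CD4 IEL replicate 2, CD8αα from CD4 replicates 2 and 3 and CD8αα from CD8αβ replicates 1 and 3.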

How the data were processed

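RNA of sorted IEL was sequenced after extraction and library synthesis with the kits named in the labels. The authors deposited a table of raw counts per gene. Per the submitters' processing notes, alignment was by HISAT2 2.1.0 to mm10. The sources used here name neither the counting program and its annotation nor how strand and multiply matching reads were handled, so reads of near-identical, overlapping and antisense genes are uncertain.

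The table had 25965 rows. Of rows with a repeated symbol the one with the most reads was used, which left out 66 rows and 0.0202% of reads, and 25 symbols that a spreadsheet had turned into dates were restored by their Ensembl identifiers. Of 24986 identifiers found in GENCODE M21, 99.95% lay on the same chromosome. Between libraries of the same group the chi-square per gene was 11.36 to 24.29 in this comparison, above counting error alone. None was thus the same library sequenced again. This check cannot tell libraries of different mice from separate libraries of the same cells. Columns of samples were mapped by title.

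Genes kept by filterByExpr (minimum count 10, minimum total 15) were scaled by TMM and fitted with edgeR 4.0.16 (R 4.3.3), all 12 libraries in 1 model with a mean per group, with the two-sided quasi-likelihood test and Benjamini-Hochberg adjustment over 12622 genes at 0.05. The fit was tested on simulated data first. CPM are counts over the TMM-scaled total. A fold against a group with 0 reads is a lower bound from 3 counts over that group, and one against 1 to 3 reads has a 95% exact binomial interval of counting error. The list medians given in the report were the same with such genes at their bound. Called members and medians were counted for 65 gene lists. The comparison, its lists and its rules were chosen with earlier results of these data known.

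Genes were named as the 15 largest called rises and 15 largest falls (no overlap of libraries, at least 30 CPM in the higher group, predicted genes, small RNAs and receptor segments left out), up to 3 called members per list and direction (at least 10 CPM), the 12 most abundant shared genes and up to 2 per list, genes at the limits of the lost and gained sets, the 4 largest interactions per direction, the gene with most reads per group, and checks of the libraries. Genes outside this rule are marked. Lost, gained and shared genes were counted without a test. The limit of 1 CPM on shared genes was tried after the rule as planned was seen to pass a gene with no reads, and the rule as planned is the main value. The date symbols and the DESeq2 and 1 CPM alternatives for the interaction were likewise handled after seeing the data. Same-numbered libraries deviated together with correlations of only −0.016, 0.037 and 0.06 across genes, so replicate numbers were not taken as pairs. Alternatives were other scalings, filters, DESeq2 1.42.0, a replicate block, the 6 libraries alone, the Y-linked library alone and each library left out. Promoter windows are RefSeq sequences of GRCm38.p6, and the 3 CD3 genes and Fcer1g matched by symbol. The genes and motifs shown were chosen after the values were seen.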

Additional observations from a re-analysis of the deposited data

Results flagged for a closer look

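A test of the difference between the changes in the 2 kinds of host set apart 8 genes, the 4 with the largest positive and the 4 with the largest negative difference. Each value is the log2 change of CD8αα from CD4 over CD4 IEL minus that of CD8αα from CD8αβ over CD8αβ IEL, from edgeR's quasi-likelihood test. Cd8b1 stood at 10.32 and Cd4 at −7.34, and both are genes of the coreceptors that name the groups. The NKG2 receptor genes Klrc1 and Klrc2 stood at 7.09 ± 0.48 (SE, adjusted p = 3.54e-06) and 5.94 ± 0.79 (adjusted p = 0.00119). Klrc2 averaged 4.10 CPM in CD8αα from CD4 and 3.18 in CD4 IEL, against 0.830 in CD8αα from CD8αβ and 39.5 in CD8αβ IEL. These 2 are near-identical neighbours, so their reads are uncertain. Zbtb32 stood at 6.88 ± 1.07 (adjusted p = 0.00382), with 0.865 CPM in CD8αα from CD4, 0.810 in CD4 IEL, 0.292 in CD8αα from CD8αβ and 33.9 in CD8αβ IEL. Tnfsf8 stood at −5.75 ± 0.54 (adjusted p = 7.08e-05) and Maf at −5.28 ± 0.48 (adjusted p = 5.23e-05). Il17re stood at −15.28 (adjusted p = 0.019), with 0 reads in CD8αα from CD4 and in CD8αβ IEL, so this size depends on the prior count and gives no fold. Whether the sex-linked split of the libraries has a part in these differences was not tested.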

How the results depend on the processing

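Of the counts of called genes, those with other scalings, filters, DESeq2, the 6 libraries alone or the replicate block ran from 3466 (no filter on low counts) to 4010 (DESeq2), and those without 1 library from 2768 to 3232 (1447 to 1733 higher, 1321 to 1507 lower). The replicate block gave 3674. The Y-linked library alone gave 1751 (937 higher, 814 lower), a fit that assumes the lone library varies like the other groups. The difference between hosts had 806 genes with DESeq2, 13 with the Y-linked CD8αα libraries, 356 with the replicate block and 147 to 368 without 1 library. Genes lost in CD8αα from CD4 numbered 20 at a limit of 0.5 CPM and 36 at 2 CPM, and genes gained 2 and 21. Shared genes numbered 5391 with an interval within 1, 1022 with library totals and 1082 with the added limit of 1 CPM. No named gene changed sign in a called value under any of the alternatives. With the Y-linked library alone, 17 named genes lost their call: Acvr2a, Ccrl2, Cox8a, Cpa3, Eomes, Fasl, Fosb, Ikzf3, Il7, Klrc1, Ptgs1, Runx3, Slc16a3, Tfrc, Tgfbr1, Tnfsf10 and Tox. The cause was not tested, and the use of 1 library in place of 3 cannot be told apart from a trait of that library. Of 130 list counts, 63 moved by over 1.5 times there and 10 to 18 without 1 library. With 3 libraries a group, depth and number limit small changes, and fewer than 3 counts could not be told from 0.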
